A study of Mus musculus with 12 samples.

Results

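The genes described here are 38 genes that mark the distal nephron and the collecting duct of the kidney, out of 14096 genes listed for isolated mouse glomeruli. They were taken by symbol from a list of genes known for these segments, and all 38 were found. By the segment that each is best known for, 7 were placed in the thick ascending limb, 6 in the distal convoluted tubule, 9 in the principal cell and 8 in the intercalated cell of the collecting duct, and 8 are used by several distal segments. Polyadenylated RNA was sequenced from glomeruli of 12 male mice in 4 groups of 3, and all 12 lacked endothelial nitric oxide synthase (eNOS-/-, C57BL/6J), so there was no eNOS wild-type group. Diabetic mice received streptozotocin, which destroys insulin-producing beta cells, at 50 mg/kg on 5 days from 8 weeks of age, and the nondiabetic controls received buffer. From 10 weeks after induction each mouse was gavaged for 8 weeks with arctigenin (ATG, a plant lignan) at 40 mg/kg per day or with its vehicle of 5% DMSO. The groups are named Con_DMSO, Con_ATG, DM_DMSO and DM_ATG, and the 3 mice of a group are numbered.

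The distal nephron begins after the loop of Henle turns back toward the cortex. The thick ascending limb reabsorbs salt without water, the distal convoluted tubule adjusts sodium, calcium and magnesium, and the collecting duct ends the work with principal cells, which take up sodium and water under aldosterone and vasopressin, and intercalated cells, which move acid and base. None of these cells belongs to the glomerular tuft, although the macula densa, where the thick ascending limb touches its own glomerulus, is attached to it. Tubule fragments are a known companion of glomeruli isolated from kidney tissue.

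Each library held 23640000 to 29770000 reads in the listed genes, and each member had at least 110 reads in every mouse. The mean log2 value of 10 podocyte markers was 14.03 to 14.75 in the 4 groups, against 11.1 to 12.42 for the 38 distal genes. In Con_ATG the members of the distal convoluted tubule had a mean of 14.15, above the podocyte mean of 14.03. These means depend on the genes chosen and do not test the label of glomerulus. Values are log2 normalised expression, so that 1 unit is a 2-fold difference. Within the DM_DMSO group the mice stood apart. DM_DMSO 2 had the highest value of the group for 36 of the 38 members and DM_DMSO 3 the lowest for 37, with a median range of 1.4 log2 units over the members against 0.27 over all listed genes. In the Con_ATG group, Con_ATG 3 was highest for 31 members and Con_ATG 2 lowest for 36, with a median range of 0.93 against 0.31. Con_DMSO and DM_ATG mice lay closer together, with median ranges of 0.22 and 0.34. By their titles the 3 DM_DMSO mice share 1 preparation code, the 3 DM_ATG mice another, and mice 1 and 2 of each nondiabetic group a further one, while Con_DMSO 3 and Con_ATG 3 each have a code of their own and no number. No code spans 2 groups, so a preparation and the group cannot be told apart.

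Umod, Slc12a3 and Egf were among the most abundant transcripts in these glomerular preparations, while other members ranked low, down to 11596 to 12727 of 14096 for Aqp4 in Con_DMSO. Umod, which encodes uromodulin, the main protein of normal urine, ranked 5 of 14096 genes by log2 value in each of the 3 Con_DMSO mice and between 3 and 7 in the Con_ATG mice. It ranked 10 to 78 in the DM_DMSO mice and 17 to 28 in the DM_ATG mice. Slc12a3, the thiazide-sensitive sodium chloride cotransporter, ranked 7 to 11 in Con_DMSO and 23 to 168 in DM_DMSO, and Egf, epidermal growth factor, ranked 12 to 13 and 66 to 249. Together the 38 members took 1.82% to 1.91% of the reads in the 3 Con_DMSO mice, 1.90% to 3.94% in Con_ATG, 0.449% to 1.24% in DM_DMSO and 0.891% to 0.953% in DM_ATG. The shares in the 6 diabetic mice were below those in the 6 nondiabetic mice. Levels in Con_DMSO were also divided by gene length and are given as the log2 of the level per kilobase. The order was led by Umod at 15.6, Fxyd2 at 15.56, Slc12a3 at 14.83, Egf at 14.53, Defb1 at 14.44 and Calb1 at 13.91. It was closed by Slc4a1 at 8.15, Irx1 at 7.54, Slc26a7 at 7.39 and Aqp4 at 5.09. Umod and Fxyd2 are neighbours in that order that differed by less than the spread of Umod between the mice.

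**Figure D1:**
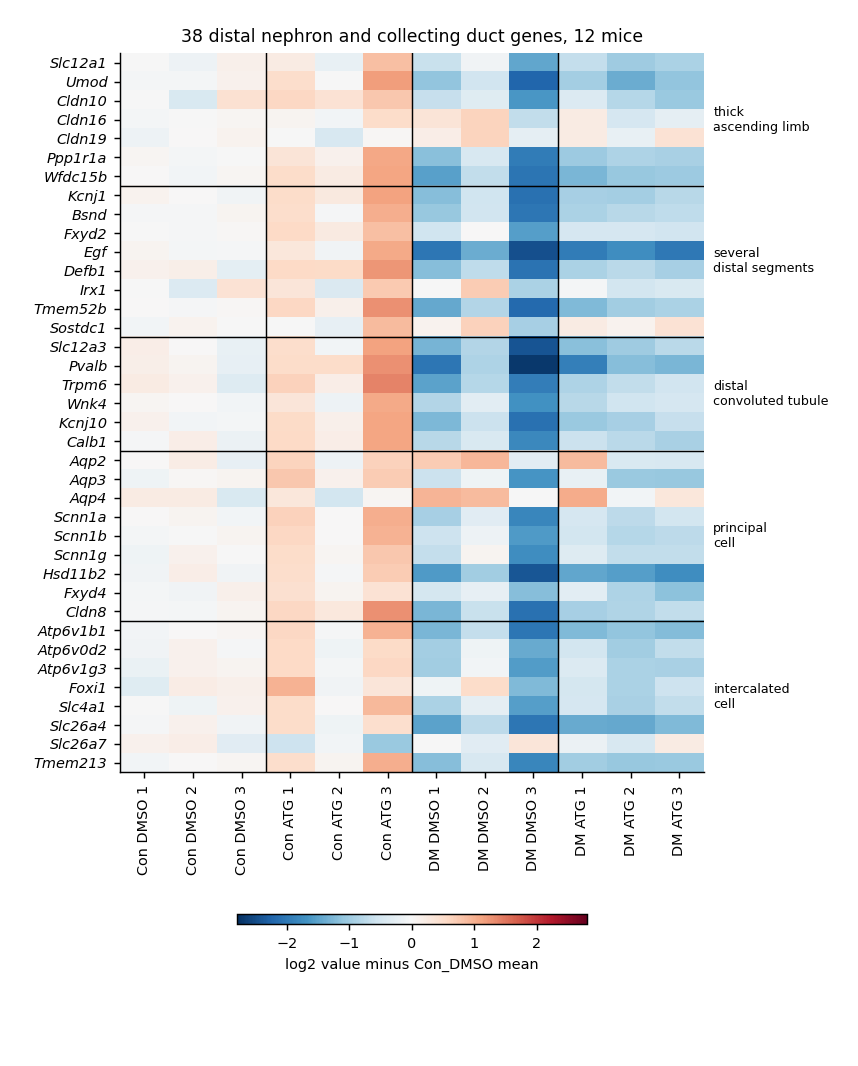
Log2 value of each of the 38 members (rows, grouped by segment) in each of the 12 mice (columns, grouped by treatment), minus the mean of the 3 Con_DMSO mice, with blue below and red above that mean. The DM_DMSO 3 column is the darkest blue, the Con_ATG 3 column the most red, and Cldn16, Cldn19, Irx1, Sostdc1, Aqp2, Aqp4 and Slc26a7 break the pattern of their neighbours.

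Sequences before the transcription start were looked at for the members because most of them moved together. RefSeq promoter entries of the build GRCm38.p6 were at hand for 24 of the 38 members, with 28 starts in all. Those without an entry were Bsnd, Cldn8, Sostdc1, Irx1, Atp6v0d2, Hsd11b2, Defb1, Slc26a7, Scnn1a, Ppp1r1a, Slc4a1, Fxyd2, Aqp4 and Calb1. The 250 bases before each start were searched on both strands for TGTTTAC, the core read by forkhead factors such as Foxi1, and for CAAGGTCA, AACCGGTT and TGACGTCA, the core letters of estrogen-related receptor, grainyhead-like and cAMP response sites. TGTTTAC stood in 3 of the 28 member promoters (10.7%), those of Slc12a1, Egf and Atp6v1b1, and in 3.17% of all 32851 promoters of the table. The other 3 motifs stood in none of the 28 and in 1.33%, 0.116% and 1.55% of all promoters. TGACG, the first part of TGACGTCA, stood in 2 of 28 (7.14%), those of Kcnj1 and Aqp2, and in 17.8% of all. The windows of the 3 members with TGTTTAC are shown 5′ to 3′ in the direction of the gene, with the matched letters of either strand in capitals: Egf (chr3:129725087-129725336, minus strand, TGTTTAC on the opposite strand 175 bases before the start), Slc12a1 (chr2:125152350-125152599, plus strand, 228 bases before it) and Atp6v1b1 (chr6:83742767-83743016, plus strand, 98 bases before it). The other Egf start, with the window chr3:129755323-129755572, had no TGTTTAC on either strand. The matches are descriptions of letters and not of bound sites.
Egf: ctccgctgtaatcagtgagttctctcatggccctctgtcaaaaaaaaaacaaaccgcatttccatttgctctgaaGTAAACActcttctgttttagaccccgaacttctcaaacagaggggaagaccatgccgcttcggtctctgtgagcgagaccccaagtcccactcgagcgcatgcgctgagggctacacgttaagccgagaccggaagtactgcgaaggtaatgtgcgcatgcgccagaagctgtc
Slc12a1: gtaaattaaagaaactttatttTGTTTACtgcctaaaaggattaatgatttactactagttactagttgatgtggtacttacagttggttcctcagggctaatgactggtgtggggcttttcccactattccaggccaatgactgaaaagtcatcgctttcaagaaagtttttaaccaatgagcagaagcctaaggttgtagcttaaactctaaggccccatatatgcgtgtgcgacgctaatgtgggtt
Atp6v1b1: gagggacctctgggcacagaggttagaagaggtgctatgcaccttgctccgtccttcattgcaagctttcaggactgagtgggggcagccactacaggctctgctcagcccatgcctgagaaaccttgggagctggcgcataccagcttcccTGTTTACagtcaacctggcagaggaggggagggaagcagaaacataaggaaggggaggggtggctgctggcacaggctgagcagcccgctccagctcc

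Diabetes in vehicle-treated mice was the first comparison, of DM_DMSO with Con_DMSO. Of the 38 members 17 were lower and 0 higher at an adjusted p under 0.05 by limma, against 8.63% lower and 10.2% higher of all 14096 genes tested. The median log2 fold change of the members was −0.96 (all genes 0.01), and 34 of 38 were below 0. The 3 diabetic mice lay below the 3 controls, with no overlap, for 25 of 38 members, and above them for 0, where the background was 18.7% and 23.0%. In bulk tissue, fewer distal tubule cells in a preparation and less RNA per cell cannot be told apart. The count changed with single mice. It was 4 without Con_DMSO 1, 11 without Con_DMSO 2, 9 without Con_DMSO 3, 7 without DM_DMSO 1 and 30 without DM_DMSO 2. The lower calls over all genes moved with it, from 1217 to 326, 734, 468, 448 and 1633 in the same order. The median was −1.28 without DM_DMSO 2 and −0.58 without DM_DMSO 3. Only Egf, Hsd11b2, Slc26a4 and Wfdc15b passed in each of the 12 fits that left out 1 mouse.

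The second diabetes comparison, of DM_ATG with Con_ATG, sets other mice against each other than the first. Both came from 1 fit of the 4 groups and share its estimate of the spread, so their calls are not independent. Here 31 of 38 members were lower and 0 higher, against 20.8% and 25.9% of all genes, with a median of −1.29 (all genes 0.05). The same 31 members had groups that did not overlap, with the diabetic mice lower, and 0 did so in the other direction, against 25.6% and 30.5% of all genes. The 17 members called in vehicle-treated mice were all among these 31, which is 100.0% of the first list and 54.8% of the second. The 31 make up 81.6% of the 38 members, so most of any set of members would fall among them. The overlap was not tested. Of the 31, 24 passed in each of the 12 fits that left out 1 mouse. Slc12a1, Fxyd2, Scnn1a, Scnn1g, Wnk4, Atp6v1g3 and Foxi1 did not, and Wnk4 passed in 7 and Atp6v1g3 in 8 of those fits. The lowest count was 24, without Con_ATG 3, the mouse with the highest distal values, and without both Con_DMSO 3 and Con_ATG 3 the count was 18 (15 in vehicle-treated mice). Cldn16, Cldn19, Irx1, Sostdc1, Aqp2, Aqp4 and Slc26a7 passed in neither diabetes comparison.

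**Figure D2:**
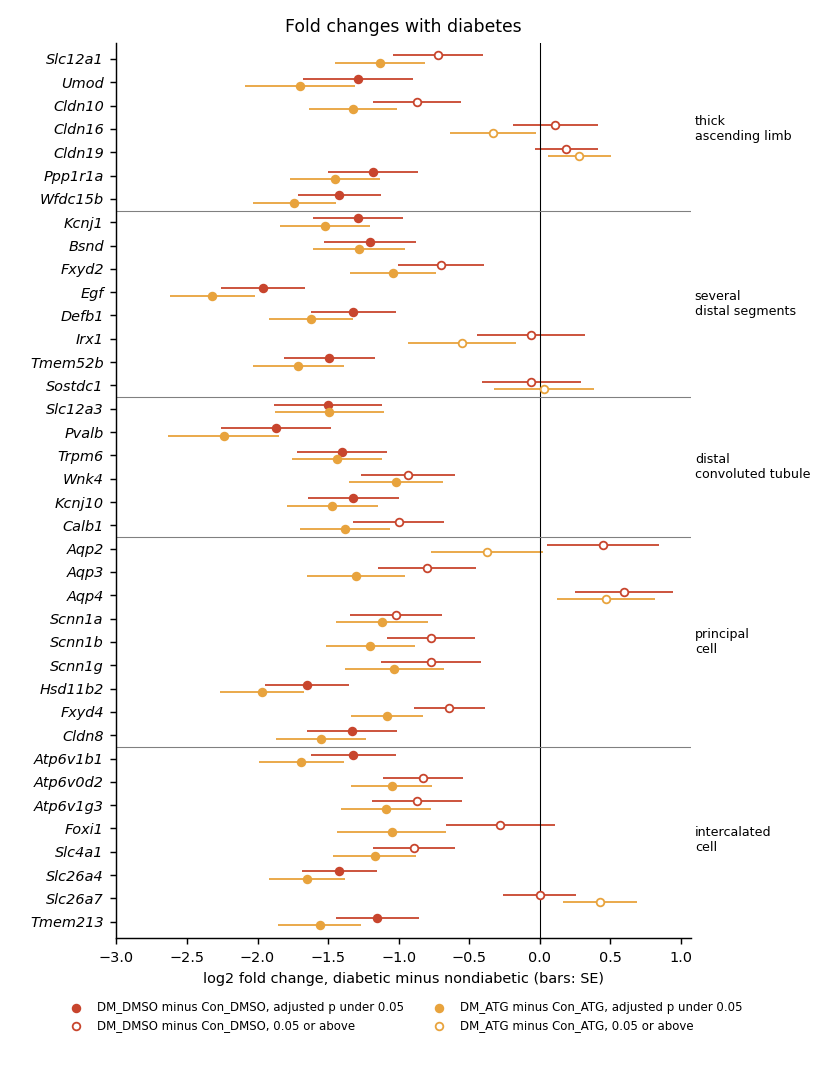
Log2 fold change with its standard error for each member in the 2 diabetes comparisons, DM_DMSO minus Con_DMSO in red and DM_ATG minus Con_ATG in orange, n = 3 mice a group. Filled points have an adjusted p under 0.05 by limma, and Egf lies farthest to the left in both comparisons, at −1.96 and −2.32.

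The thick ascending limb had 3 of 7 members lower with diabetes in vehicle-treated mice and 5 of 7 in ATG-treated mice. Umod lies on chromosome 7 at 119462708 to 119479262 of mm10. It read 16.91, 16.91 and 17.07 in the Con_DMSO mice, 17.46, 16.95 and 18.13 in Con_ATG, 15.86, 16.42 and 14.75 in DM_DMSO, and 16.01, 15.57 and 15.86 in DM_ATG. The 6 diabetic mice lay below the 6 nondiabetic mice. Umod fell by 1.29 ± 0.390 (SE) log2 units in vehicle-treated mice (limma adjusted p = 0.0416) and by 1.7 ± 0.390 in ATG-treated mice (adjusted p = 0.00529). The first call was lost in 9 of the 12 fits that left out 1 mouse, with a highest adjusted p of 0.112, and the second in none.

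Slc12a1, the loop-diuretic-sensitive cotransporter NKCC2 and the main route of salt entry into these cells, had smaller differences than Umod, which were not tested against those of Umod. Its values were 14.55, 14.41 and 14.71 in Con_DMSO, 14.78, 14.35 and 15.41 in Con_ATG, 13.93, 14.46 and 13.1 in DM_DMSO, and 13.9, 13.56 and 13.68 in DM_ATG. DM_DMSO 2 overlapped the controls. The difference of −0.72 in vehicle-treated mice did not pass (adjusted p = 0.132), and the fall of 1.13 ± 0.320 in ATG-treated mice did (adjusted p = 0.0146). Wfdc15b, a small secreted protein with a protease inhibitor fold, had the lowest p of the segment. It read 11.98, 11.88 and 12.02 in Con_DMSO, 12.47, 12.18 and 13.06 in Con_ATG, 10.44, 11.28 and 9.91 in DM_DMSO, and 10.67, 10.9 and 10.94 in DM_ATG. Each diabetic mouse lay below each nondiabetic mouse. Wfdc15b fell by 1.42 ± 0.295 (adjusted p = 0.0114) and by 1.74 ± 0.295 (adjusted p = 0.00126) in the 2 comparisons.

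Claudins of the thick ascending limb form the paracellular path for calcium and magnesium. Cldn16 and Cldn19, which build the cation pore, were called in neither diabetes comparison, and their difference from Umod was not tested. Cldn16 read 8.61, 8.64 and 8.72 in Con_DMSO, 8.73, 8.59 and 9.17 in Con_ATG, 9.03, 9.29 and 7.97 in DM_DMSO, and 8.9, 8.2 and 8.4 in DM_ATG. Cldn19 read 8.19, 8.35 and 8.43 in Con_DMSO, 8.32, 7.88 and 8.36 in Con_ATG, 8.51, 8.96 and 8.07 in DM_DMSO, and 8.55, 8.13 and 8.73 in DM_ATG. The groups overlapped for both genes. In vehicle-treated mice the intervals (95%) of the fold change were −0.56 to 0.77 for Cldn16 and −0.31 to 0.68 for Cldn19. The point value for Umod, a fall of 1.29, lies outside both. The interval of Umod itself was −2.15 to −0.43 and overlaps that of Cldn16. Cldn10, the claudin of the sodium-selective path, was at −0.87 (adjusted p = 0.073) and fell by 1.32 (adjusted p = 0.00618) in ATG-treated mice. Ppp1r1a, an inhibitor of protein phosphatase 1, fell by 1.18 (adjusted p = 0.0287) and 1.45 (adjusted p = 0.0045).

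Genes used along several distal segments had 5 of 8 members lower with diabetes in vehicle-treated mice and 6 of 8 in ATG-treated mice. Egf, made as a membrane precursor by the thick limb and distal convoluted tubule and shed into urine, had the largest fall of the 38 members in both comparisons. It lies on chromosome 3 at 129677577 to 129725086. Its values were 16.34, 16.22 and 16.24 in Con_DMSO, 16.58, 16.17 and 17.34 in Con_ATG, 14.24, 14.88 and 13.8 in DM_DMSO, and 14.32, 14.54 and 14.27 in DM_ATG. The highest diabetic mouse lay more than 1 log2 unit below the lowest nondiabetic mouse. Egf was 3.89-fold lower with diabetes in vehicle-treated mice (log2 fold change −1.96 ± 0.299, adjusted p = 0.00414) and 4.98-fold lower in ATG-treated mice (−2.32 ± 0.299, adjusted p = 0.000347).

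Kcnj1, the apical potassium channel ROMK, read 14.21, 14.13 and 14.03 in Con_DMSO, 14.63, 14.39 and 15.24 in Con_ATG, 12.92, 13.57 and 12.02 in DM_DMSO, and 13.19, 13.16 and 13.35 in DM_ATG. It fell by 1.29 (adjusted p = 0.0209) and by 1.52 (adjusted p = 0.0035), with no overlap between diabetic and nondiabetic mice. Bsnd, the barttin subunit that carries the basolateral chloride channels to the membrane, fell by 1.2 and 1.28, Tmem52b by 1.49 and 1.71, and Defb1, a beta-defensin, by 1.32 and 1.62. Fxyd2, the gamma subunit of the sodium pump, read 14.71, 14.69 and 14.76 in Con_DMSO, 15.27, 14.97 and 15.57 in Con_ATG, 14.16, 14.74 and 13.17 in DM_DMSO, and 14.24, 14.25 and 14.19 in DM_ATG. DM_DMSO 2 reached the controls, and the difference of −0.7 did not pass in vehicle-treated mice (adjusted p = 0.126) while the fall of 1.04 in ATG-treated mice did (adjusted p = 0.0168).

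Of this group Irx1 and Sostdc1 showed values that did not separate. Irx1, a patterning factor of the nephron, was at −0.06 (interval −0.91 to 0.79) and −0.55 (−1.39 to 0.3) in the 2 comparisons. Sostdc1, a secreted antagonist of BMP and WNT signals, was at −0.06 (−0.84 to 0.71) and 0.03 (−0.74 to 0.81). These intervals leave out the falls seen for Egf, but not a change of the size seen for Fxyd2 in vehicle-treated mice.

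The distal convoluted tubule was the segment with the largest share of lower members, 4 of 6 in vehicle-treated mice and 6 of 6 in ATG-treated mice, and its median fold changes were −1.36 and −1.45. Slc12a3, on chromosome 8 at 94329208 to 94366221, read 16.75, 16.56 and 16.35 in Con_DMSO, 17.06, 16.49 and 17.69 in Con_ATG, 15.26, 15.75 and 14.15 in DM_DMSO, and 15.4, 15.57 and 15.81 in DM_ATG. The diabetic and nondiabetic mice did not overlap. It fell by 1.5 ± 0.384 (adjusted p = 0.0233) and by 1.49 ± 0.384 (adjusted p = 0.00953). The first call was lost in 4 of the 12 fits that left out 1 mouse, where the adjusted p rose to 0.0852 at most.

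Pvalb encodes parvalbumin, the calcium buffer of the early convoluted tubule. Its values were 12.02, 11.93 and 11.62 in Con_DMSO, 12.38, 12.38 and 13.14 in Con_ATG, 9.83, 10.99 and 9.16 in DM_DMSO, and 9.95, 10.67 and 10.57 in DM_ATG. It was 3.65-fold lower (adjusted p = 0.0116) and 4.71-fold lower (adjusted p = 0.00146) with diabetes. Trpm6, the apical magnesium channel, read 11.9, 11.77 and 11.3 in Con_DMSO, 12.3, 11.84 and 13.05 in Con_ATG, 10.17, 10.86 and 9.73 in DM_DMSO, and 10.8, 10.96 and 11.12 in DM_ATG, and fell by 1.4 (adjusted p = 0.0153) and 1.44 (adjusted p = 0.00456). Trpm6 was lower in each diabetic mouse than in each nondiabetic mouse.

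Calb1, the calcium carrier calbindin of the late convoluted tubule, read 15.4, 15.62 and 15.27 in Con_DMSO, 15.99, 15.62 and 16.54 in Con_ATG, 14.66, 15.01 and 13.62 in DM_DMSO, and 14.82, 14.67 and 14.53 in DM_ATG. The groups did not overlap, yet the difference of −1.0 in vehicle-treated mice stood just short of the threshold (adjusted p = 0.0514), and the fall of 1.38 in ATG-treated mice passed (adjusted p = 0.00568). Kcnj10, the basolateral potassium channel, fell by 1.32 and 1.47. Wnk4, the kinase that sets the activity of the cotransporter encoded by Slc12a3, was at −0.93 in vehicle-treated mice (adjusted p = 0.0722) and fell by 1.02 in ATG-treated mice (adjusted p = 0.0274).

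Principal cell genes had 2 of 9 members lower in vehicle-treated mice and 7 of 9 in ATG-treated mice. Hsd11b2, the enzyme that inactivates glucocorticoids and so reserves the mineralocorticoid receptor for aldosterone, had the lowest p of the segment. On chromosome 8 at 105518746 to 105523988, it read 12.44, 12.72 and 12.45 in Con_DMSO, 13.04, 12.51 and 13.26 in Con_ATG, 10.95, 11.57 and 10.14 in DM_DMSO, and 11.09, 11.00 and 10.81 in DM_ATG. Diabetic mice were lower without overlap, by 3.13-fold in vehicle-treated mice (adjusted p = 0.00669) and 3.91-fold in ATG-treated mice (adjusted p = 0.000701). Cldn8, a tight junction protein of the aldosterone-sensitive tubule, read 12.3, 12.29 and 12.42 in Con_DMSO, 12.92, 12.64 and 13.61 in Con_ATG, 11.07, 11.71 and 10.24 in DM_DMSO, and 11.4, 11.5 and 11.64 in DM_ATG. It was lower in each diabetic mouse and fell by 1.33 (adjusted p = 0.0184) and 1.55 (adjusted p = 0.00315).

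The epithelial sodium channel ENaC, the entry path for sodium in these cells, has 3 subunits among the members. Scnn1a, the alpha subunit, read 13.07, 13.15 and 12.99 in Con_DMSO, 13.72, 13.07 and 14.08 in Con_ATG, 12.14, 12.76 and 11.25 in DM_DMSO, and 12.61, 12.34 and 12.55 in DM_ATG. Scnn1b read 10.79, 10.84 and 10.92 in Con_DMSO, 11.42, 10.87 and 11.82 in Con_ATG, 10.27, 10.7 and 9.26 in DM_DMSO, and 10.34, 10.06 and 10.12 in DM_ATG. Scnn1g read 10.63, 10.87 and 10.74 in Con_DMSO, 11.27, 10.8 and 11.51 in Con_ATG, 10.09, 10.83 and 9.02 in DM_DMSO, and 10.38, 10.06 and 10.05 in DM_ATG. For Scnn1g DM_DMSO 2 lay inside the control range, while the other 2 subunits did not overlap between the groups. None passed in vehicle-treated mice, at −1.02, −0.77 and −0.77 (adjusted p = 0.0505, 0.106 and 0.146), and each fell in ATG-treated mice, by 1.12, 1.2 and 1.03 (adjusted p = 0.0169, 0.0104 and 0.034). With 1 mouse left out, the ATG-treated calls passed in 9 of 12 fits for Scnn1a, 12 of 12 for Scnn1b and 7 of 12 for Scnn1g. Scnn1b and Scnn1g are neighbours on chromosome 7, Scnn1g at 121734479 to 121768482 and Scnn1b at 121865038 to 121918728, and Scnn1a is on chromosome 6.

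The water channels of the principal cell are Aqp2, Aqp3 and Aqp4. Aqp2, the vasopressin-regulated apical channel, read 11.74, 11.93 and 11.49 in Con_DMSO, 12.35, 11.58 and 12.37 in Con_ATG, 12.44, 12.65 and 11.4 in DM_DMSO, and 12.61, 11.3 and 11.28 in DM_ATG. DM_DMSO 1, DM_DMSO 2 and DM_ATG 1 lay above the other diabetic mice, and the groups overlapped. Its fold change was 0.45 (interval −0.43 to 1.32) in vehicle-treated and −0.37 (−1.24 to 0.5) in ATG-treated mice. Aqp3, a basolateral exit path for water, read 10.68, 10.84 and 10.88 in Con_DMSO, 11.55, 10.93 and 11.52 in Con_ATG, 10.2, 10.68 and 9.14 in DM_DMSO, and 10.59, 9.76 and 9.74 in DM_ATG. It was at −0.8 in vehicle-treated mice (adjusted p = 0.128) and fell by 1.3 in ATG-treated mice (adjusted p = 0.0112). Aqp4, the other basolateral channel and the least abundant member, was at 0.6 (interval −0.16 to 1.37) and 0.47 (−0.29 to 1.23). Fxyd4, a partner of the sodium pump in the collecting duct, read 8.77, 8.73 and 8.98 in Con_DMSO, 9.27, 8.91 and 9.23 in Con_ATG, 8.33, 8.59 and 7.63 in DM_DMSO, and 8.54, 7.96 and 7.68 in DM_ATG. It was at −0.64 (adjusted p = 0.0981) and fell by 1.08 (adjusted p = 0.00616).

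Intercalated cell genes had 3 of 8 members lower in vehicle-treated mice and 7 of 8 in ATG-treated mice. Slc26a4, the chloride-bicarbonate exchanger pendrin of the base-secreting cell, lies on chromosome 12 at 31519819 to 31559969 and read 11.83, 11.99 and 11.77 in Con_DMSO, 12.38, 11.73 and 12.34 in Con_ATG, 10.36, 11.12 and 9.84 in DM_DMSO, and 10.44, 10.43 and 10.63 in DM_ATG. The diabetic mice were lower with no overlap. It was 2.68-fold lower (adjusted p = 0.00799) in vehicle-treated and 3.15-fold lower (adjusted p = 0.00101) in ATG-treated mice. Atp6v1b1, the proton pump subunit typical of intercalated cells, read 12.34, 12.43 and 12.47 in Con_DMSO, 13.00, 12.38 and 13.39 in Con_ATG, 11.12, 11.75 and 10.39 in DM_DMSO, and 11.17, 11.31 and 11.19 in DM_ATG. It fell by 1.32 (adjusted p = 0.0154) and fell by 1.69 (adjusted p = 0.00157). Tmem213 fell by 1.15 and 1.56. The other proton pump subunits of these cells, Atp6v0d2 and Atp6v1g3, were at −0.83 and −0.87 in vehicle-treated mice (adjusted p = 0.0628 and 0.0772) and fell by 1.05 and 1.09 in ATG-treated mice.

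Slc4a1, the band 3 exchanger, is shared by the acid-secreting cell and the red blood cell. It read 10.33, 10.22 and 10.46 in Con_DMSO, 10.86, 10.35 and 11.25 in Con_ATG, 9.45, 10.09 and 8.79 in DM_DMSO, and 9.87, 9.44 and 9.65 in DM_ATG. It was at −0.89 in vehicle-treated mice (adjusted p = 0.0548) and fell by 1.17 in ATG-treated mice (adjusted p = 0.00841). The 6 listed erythrocyte markers had fold changes above 0 in both comparisons. Of these, 3 of 6 were called higher in vehicle-treated and 1 of 6 in ATG-treated diabetic mice, against 10.2% and 25.9% of all genes. Their list means were 5.6 to 5.78 in Con_DMSO, 5.21 to 5.5 in Con_ATG, 5.96 to 7.75 in DM_DMSO and 5.68 to 6.68 in DM_ATG. The part of erythrocytes in the Slc4a1 values was not tested. Foxi1, the forkhead factor that intercalated cells need, read 9.24, 9.77 and 9.71 in Con_DMSO, 10.54, 9.47 and 9.9 in Con_ATG, 9.44, 10.09 and 8.33 in DM_DMSO, and 9.08, 8.68 and 8.99 in DM_ATG. Its groups overlapped in vehicle-treated mice (−0.28, adjusted p = 0.635), and its fall of 1.05 in ATG-treated mice (adjusted p = 0.0442) passed in only 3 of the 12 fits that left out 1 mouse. Slc26a7, a chloride and bicarbonate transporter, had another order of the mice. It read 8.75, 8.82 and 8.32 in Con_DMSO, 8.06, 8.56 and 7.6 in Con_ATG, 8.62, 8.31 and 8.96 in DM_DMSO, and 8.47, 8.18 and 8.86 in DM_ATG. Its highest DM_DMSO value was in DM_DMSO 3 and its lowest Con_ATG value in Con_ATG 3, the reverse of most members.

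**Figure D3:**
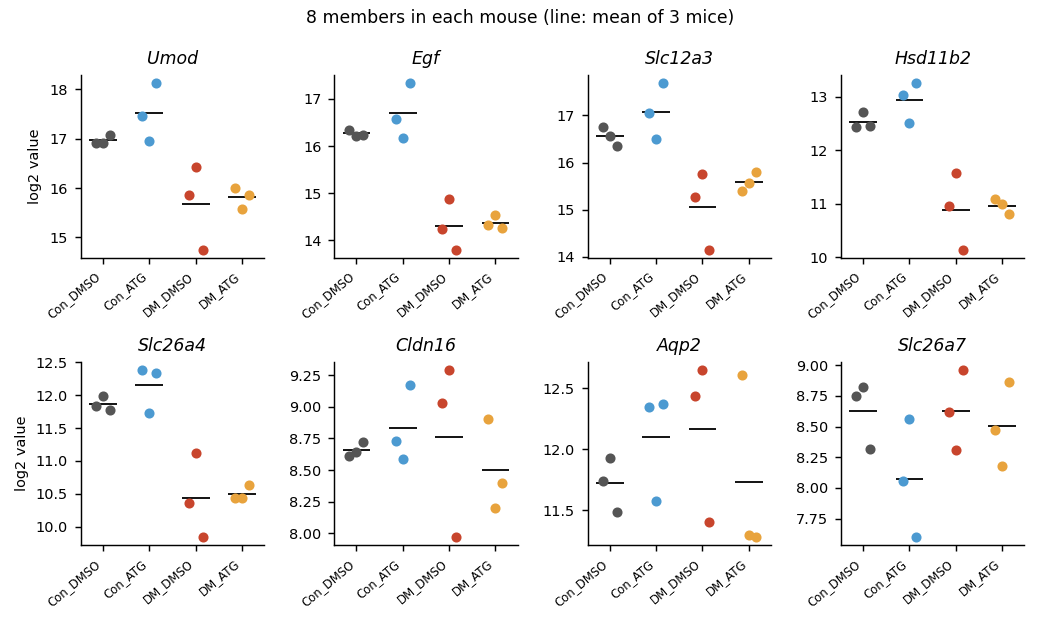
Log2 value of 8 members in each of the 12 mice, with the mean of each group as a line (n = 3). Umod, Egf, Slc12a3, Hsd11b2 and Slc26a4 are lower in the 6 diabetic mice than in the 6 nondiabetic mice, while Cldn16, Aqp2 and Slc26a7 overlap between the groups.

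ATG was compared with vehicle in nondiabetic mice, where most distal genes had a fold change above 0 and 0 were called. The number of members called was 0 in either direction by limma, with 3 at an unadjusted p under 0.05 (Cldn8, Defb1 and Trpm6, where 30.2% of all genes were) and 0 called by limma-voom on recovered reads. Of all genes, 0.709% were higher and 4.51% lower. The median log2 fold change was 0.5 (all genes −0.04) and 35 of 38 were above 0. The median was 0.26 without Con_ATG 3 and 0.29 without both Con_DMSO 3 and Con_ATG 3. The groups did not overlap for 12 of 38 members, all higher with ATG (background 14.4% higher and 20.0% lower). The lowest adjusted p was 0.123, for Defb1, which read 14.44, 14.48 and 14.04 in Con_DMSO, 14.87, 14.85 and 15.55 in Con_ATG, 13.13, 13.61 and 12.25 in DM_DMSO, and 13.43, 13.57 and 13.4 in DM_ATG. Without Con_ATG 2 the count was 2, with Trpm6 higher and Slc26a7 lower, and without DM_DMSO 3 it was 1, Defb1, while of all genes 1064 were higher and 2467 lower in the first of these fits and 457 higher and 963 lower in the second. In these mice podocyte, endothelial and mesangial markers had median fold changes with ATG of −0.58, −0.64 and −0.96, with 0 of 10, 5 of 10 and 5 of 6 called lower, and the podocyte mean was lowest, at 13.46, in Con_ATG 3, where the distal members were highest. Proximal tubule means were 12.93 to 13.57 in Con_ATG and 11.85 to 12.71 in Con_DMSO, without overlap, with a median fold change of 0.82 and 0 of 20 markers called. With the proximal mean as a covariate the median member was at 0.11. With the podocyte mean as a covariate the median member was at −0.11 and 0 members were called, and these lists and ATG cannot be told apart.

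ATG in diabetic mice changed no member past the threshold. By limma 0 members were called, 1 had an unadjusted p under 0.05 (Trpm6, 0.71, interval 0.01 to 1.41) and limma-voom also called 0. Over all genes the share called was 0.0% in either direction, with 636 genes at an unadjusted p under 0.05. The median member was at 0.14, but at 0.52 without DM_DMSO 2 and at −0.2 without DM_DMSO 3, so its direction rested on 1 mouse. The number of members whose groups did not overlap was 0 in either direction, against 3.85% higher and 6.32% lower of all genes. The 95% intervals of the difference were −0.59 to 0.73 for Egf, −0.72 to 1.00 for Umod, −0.31 to 1.38 for Slc12a3, −0.57 to 0.73 for Hsd11b2 and −0.53 to 0.65 for Slc26a4. The test of whether ATG acted differently in diabetic and nondiabetic mice called 0 members (0.539% of all genes higher, 0.00709% lower), with 0 members at an unadjusted p under 0.05 (12.9% of all genes), 0 called by limma-voom and a lowest adjusted p of 0.523, for Aqp2.

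Members of the same library were set against each other to see which of them kept step. Whether both members of a pair come from the same cells in these preparations was not tested. The pairs were chosen after the values were seen, so they carry no test. Slc12a1 served as the partner in the thick limb. Umod was 2.36 to 2.71 log2 units above Slc12a1 in the 6 nondiabetic mice and 1.64 to 2.17 above it in the 6 diabetic mice. Egf was 1.54 to 1.92 above Slc12a1 in nondiabetic mice and 0.32 to 0.98 above it in diabetic mice. In the other direction the value of Cldn16 minus Slc12a1 was −6.24 to −5.76 in nondiabetic and −5.36 to −4.9 in diabetic mice, and that of Cldn19 minus Slc12a1 was −7.05 to −6.06 and −5.51 to −4.96. The mice with and without diabetes were separate in each of these pairs, with Egf and Umod lower, and both claudins higher, relative to Slc12a1. Egf is also made by the convoluted tubule, so its partner is not a gene of all the same cells.

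Principal cell pairs had Scnn1a as the partner. Hsd11b2 minus Scnn1a was −0.82 to −0.44 in nondiabetic mice and −1.74 to −1.11 in diabetic mice. Scnn1b minus Scnn1a was −2.32 to −2.07 in nondiabetic and −2.43 to −1.87 in diabetic mice, and Scnn1g minus Scnn1a was −2.56 to −2.25 and −2.5 to −1.93. The ENaC subunits overlapped between diabetic and nondiabetic mice, and Hsd11b2 did not. Aqp4 minus Scnn1a was higher in diabetic mice without overlap, at −4.96 to −3.73 against −6.56 to −5.39. Aqp3 minus Aqp2 was −1.09 to −0.61 in nondiabetic mice and −2.26 to −1.54 in diabetic mice, without overlap. Aqp2 relative to Scnn1a overlapped only through DM_ATG 3, at −1.28. The nondiabetic mice were at −1.71 to −1.23, DM_ATG 2 at −1.05 and the other 4 diabetic mice at −0.11 to 0.3.

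In the convoluted tubule Pvalb was lower relative to Slc12a3 in diabetic mice, at −5.44 to −4.77 against −4.74 to −4.11, a gap between the groups far smaller than the ranges, and Calb1 overlapped. In the intercalated cell Slc26a4 overlapped relative to Atp6v1b1, at −1.04 to −0.44 in nondiabetic and −0.88 to −0.56 in diabetic mice, and Slc4a1 was higher relative to it, at −2.21 to −2.01 and −1.87 to −1.3. Slc26a7 was also higher relative to Atp6v1b1, at −5.78 to −3.59 against −3.44 to −1.43.

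**Figure D4:**
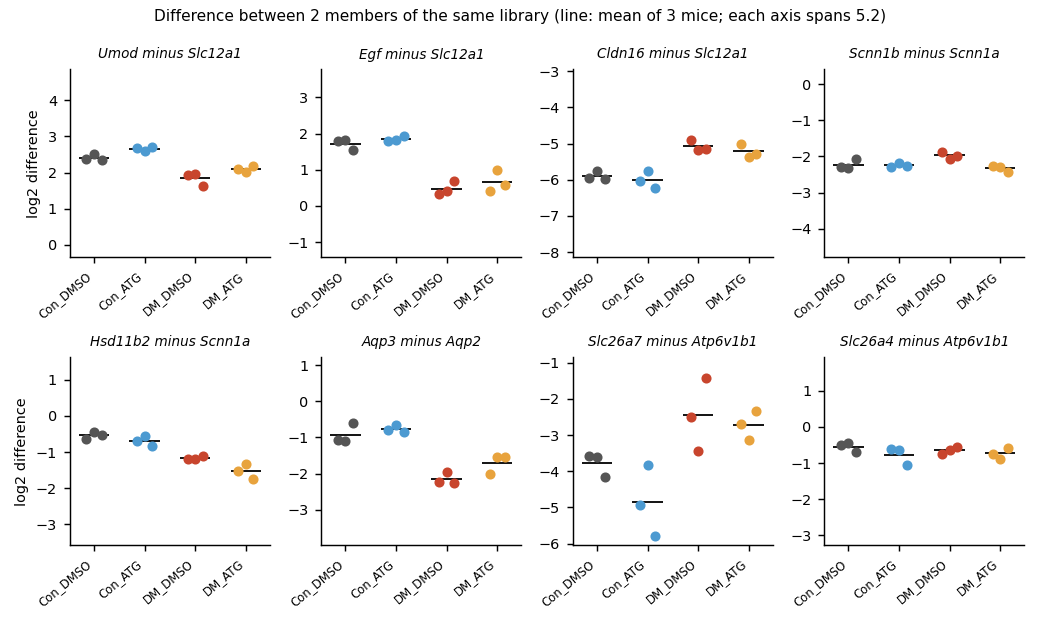
Log2 difference between 2 members of the same library for 8 pairs in the 12 mice, with group means as lines (n = 3) and the same axis span in each panel. Diabetic mice lie below the nondiabetic mice for Umod and Egf minus Slc12a1, Hsd11b2 minus Scnn1a and Aqp3 minus Aqp2, above them for Cldn16 minus Slc12a1 and Slc26a7 minus Atp6v1b1, and overlap with them for Scnn1b minus Scnn1a and Slc26a4 minus Atp6v1b1.

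The other genes of these pathways came from lists set beside the members. Of 9 genes of WNK, aldosterone and vasopressin signalling, 4 were lower with diabetes in vehicle-treated mice, and 6 were lower and 1 higher in ATG-treated mice. Klhl3, the adaptor that brings WNK kinases to degradation, fell by 1.75 (adjusted p = 0.00435) and 2.01 (adjusted p = 0.000433), and Wnk1 fell by 0.98 (adjusted p = 0.0136) and 1.2 (adjusted p = 0.00163). Sgk1, the aldosterone-induced kinase, was the gene that went up. It read 13.79, 13.73 and 13.93 in Con_DMSO, 13.4, 13.43 and 12.66 in Con_ATG, 14.24, 14.36 and 14.28 in DM_DMSO, and 14.61, 14.75 and 14.57 in DM_ATG, at 0.48 in vehicle-treated mice (adjusted p = 0.0723) and 1.48 higher in ATG-treated mice (adjusted p = 0.000223). Glomerular cells also express Sgk1, and the cell type behind its value was not tested.

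Of 13 further channels, transporters and receptors of the distal nephron, 5 were lower in vehicle-treated and 9 in ATG-treated mice. Slc8a1, the sodium-calcium exchanger, was at −1.35 and −1.5, Casr, the calcium-sensing receptor, at −1.29 and −1.38, and Cnnm2, a magnesium transport protein, at −1.1 and −1.06, and each passed in both. Among 8 further intercalated cell genes, 7 and 8 were lower, with Insrr, the alkali-sensing insulin receptor relative, at −1.29 and −1.46, the proton pump subunit Atp6v1c2 at −1.1 and −1.39, and the anion exchanger Slc4a9 at −1.03 and −1.28. Of the 15 proton pump subunits used by all cells 1, Atp6v1b2, was lower in vehicle-treated mice (−0.41, adjusted p = 0.0392), with a list median of −0.1, and 10 were lower in ATG-treated mice, with a median of −0.35.

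Distal transcription factors had 1 of 6 lower, Tfcp2l1 of the collecting duct at −1.19 (adjusted p = 0.0275), and 6 of 6 in ATG-treated mice. Esrrb was at −1.14 (adjusted p = 0.0565) in vehicle-treated mice. Of 3 further claudins, Cldn3, Cldn4 and Cldn7, 0 were called in either comparison, with medians of −0.45 and −0.73.

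Proximal tubule markers moved with the distal genes. Of 20 such markers 15 were lower with diabetes in vehicle-treated mice and 20 in ATG-treated mice, with medians of −1.72 and −1.95. Their mean log2 value ran from 11.85 to 12.71 in Con_DMSO, 12.93 to 13.57 in Con_ATG, 9.94 to 11.25 in DM_DMSO and 10.6 to 11.58 in DM_ATG, without overlap between diabetic and nondiabetic mice. The mean of the 38 distal genes minus the proximal mean was −0.73 to 0.16 in Con_DMSO and −1.13 to −0.12 in Con_ATG, and 0.29 to 0.48 in DM_DMSO and −0.42 to 0.65 in DM_ATG. In vehicle-treated mice this difference was higher in each diabetic mouse than in each control, and in ATG-treated mice it overlapped. With the proximal mean as a covariate, 0 members were called in either diabetes comparison and the median member was at −0.31 in both, while 10 genes were higher and 2 lower of all genes in the first and 91 higher and 7 lower in the second. As the proximal mean itself separates the groups, its part and that of diabetes cannot be told apart. Of 10 podocyte markers 0 were called in vehicle-treated and 3 were higher in ATG-treated mice, where 10.2% and 25.9% of all genes were called higher. The means of these podocyte markers overlapped between diabetic and nondiabetic mice. They lay at 14.53 to 14.67, 13.46 to 14.69, 14.4 to 15.15 and 14.52 to 14.82 in Con_DMSO, Con_ATG, DM_DMSO and DM_ATG. Within DM_DMSO their mean was highest in DM_DMSO 3 and lowest in DM_DMSO 2, the reverse of the distal genes. Of 10 endothelial markers 3 were higher in vehicle-treated and 10 in ATG-treated diabetic mice. Of 6 leukocyte markers 3 and 4 were higher, with medians of 0.66 and 0.6. Of 6 mesangial markers 1 was lower in vehicle-treated mice (median −0.26) and 5 were higher in ATG-treated mice (median 0.76).

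The 4 macula densa markers, of the distal cells that stay attached to the glomerulus, had 1 of 4 lower in vehicle-treated and 3 of 4 in ATG-treated mice, with medians of −0.49 and −0.67. Their mean ran from 7.94 to 8.05 in Con_DMSO, 7.67 to 8.04 in Con_ATG, 7.16 to 7.77 in DM_DMSO and 7.31 to 7.4 in DM_ATG. The 4 tubule injury markers had 0 of 4 called in either comparison, with median fold changes of 1.02 in vehicle-treated and 0.81 in ATG-treated mice. The lowest limma adjusted p was 0.0512, for Havcr1 in vehicle-treated mice. Means of the injury markers were 8.92 to 9.39 in Con_DMSO, 8.9 to 9.38 in Con_ATG, 8.99 to 10.89 in DM_DMSO and 9.0 to 10.59 in DM_ATG. Injury and macula densa values are given beside the distal genes, and their part in the result was not tested.

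**Figure D5:**
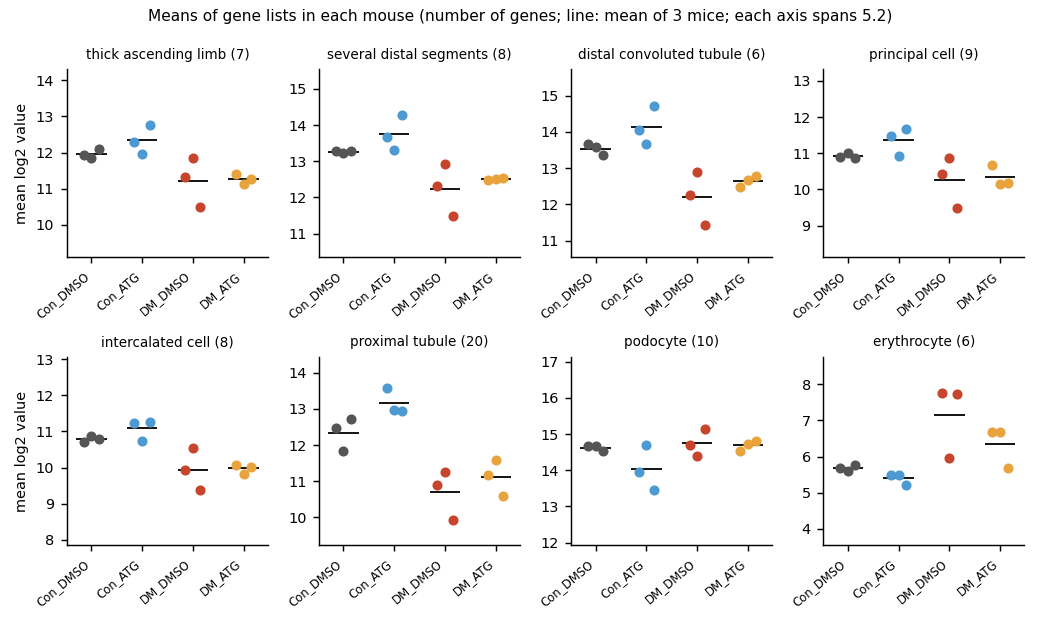
Mean log2 value of the 5 groups of members and of the proximal tubule, podocyte and erythrocyte markers in each mouse, with the group mean as a line (n = 3) and the same axis span in each panel. The 5 distal means and the proximal mean are lower in DM_ATG than in Con_ATG, the DM_DMSO mice spread widely, the podocyte mean overlaps between the groups, and the erythrocyte mean is highest in DM_DMSO.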

How the data were processed

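RNA-seq was done on isolated glomeruli of 12 mice. The deposited values are log2 expression normalised by the authors, per the file headers and values. The submitters' notes name mm10 and limma, and the aligner and counter are not given in the sources used here. The treatment protocol in the labels also describes dissociation and a sort of fluorescent cells that the RNA extraction protocol does not. In every library 83.4% to 84.1% of low linear values were whole multiples of 1 step (tolerance 0.02), so reads were recovered approximately, and limma-voom on them was added after seeing the data. With R 4.3.3, limma 3.58.1 fitted all 14096 genes in the 4 groups together, with a trended prior variance, moderated tests, Benjamini-Hochberg adjustment over all genes and 95% intervals. No pseudocount or low-value filter was used. The script was tested on simulated data. Tables and plots used Python 3.11.15, pandas 2.3.3, numpy 2.4.6 and matplotlib 3.10.9.

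Replicates are separate mice per the labels. They correlated at r = 0.972 to 0.994 and varied 12.1 to 126.0 times more than read sampling would give. No library was thus a mere resampling of another, but separate preparations of 1 mouse could not be told apart this way. Replicate numbers were not used as pairs in the main fit. A single value compared between 3 and 3 mice cannot go below p = 0.1 in an exact two-sided permutation test, so only the fit across genes was used. The 38 members, their segments and the other lists were chosen with earlier results of these data known. Values in every mouse are given for the genes that define a segment by role and for the members with the lowest p of their segment, and of each pathway list up to 3 genes with the lowest p are named. Cldn10, Ppp1r1a, Bsnd, Tmem52b, Irx1, Sostdc1, Wnk4, Kcnj10, Aqp4, Tmem213, Atp6v0d2, Atp6v1g3 and the pairs of members were described after their values were seen. Alternatives were other filters, fits, scalings, covariates and fits without each mouse. Results for 1 further motif searched and for some genes of the lists are not reported here.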

Additional observations from a re-analysis of the deposited data

How the results depend on the processing

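For diabetes in vehicle-treated mice 17 members were called, and the count was 17 with at least 10 reads required, with median-ratio scaling, without a trended variance and by limma-voom, 13 with only the 2 groups in the fit, 15 without Con_DMSO 3 and Con_ATG 3, whose titles have no number, 29 with the podocyte mean as a covariate, 0 with the proximal tubule mean and 25 at an adjusted p under 0.1. For diabetes in ATG-treated mice (31) these gave 30 to 31, except 18 without the unnumbered mice, 18 with the podocyte mean (17 lower and 1 higher) and 0 with the proximal mean. Leaving out 1 mouse gave 4 to 30 and 24 to 32 members in the diabetes comparisons, 0 to 2 for ATG in nondiabetic mice and 0 for ATG in diabetic mice and for the interaction. Same-numbered mice did not all deviate together (13 pairs, r = −0.59 to 0.339, 5 above 0.1). That check cannot exclude pairing, and the mice were not treated as paired in the main fit. A replicate block, in which Con_DMSO 3 and Con_ATG 3 formed a further level, gave 3 members (Egf, Hsd11b2 and Slc26a4) and 19. By the mean of its members the thick ascending limb differed by −0.74 in vehicle-treated and −1.06 in ATG-treated mice. By the median gene level in each mouse, which was that of Wfdc15b, it differed by −1.42 and −1.74. Causes of these shifts were not tested.

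Some fold changes changed sign. With the proximal mean, in vehicle-treated mice Slc12a1 was at 0.03, Cldn10 0.27, Fxyd2 0.20, Irx1 1.09, Sostdc1 0.50, Aqp3 0.19, Scnn1b 0.05, Scnn1g 0.19, Fxyd4 0.18 and Foxi1 0.78, and in ATG-treated mice Cldn10 was at 0.09, Cldn16 0.50, Fxyd2 0.07, Irx1 0.87, Aqp2 0.55, Scnn1g 0.16, Foxi1 0.27 and Slc26a7 −0.52. With the podocyte mean, Irx1 was at 0.10 and Sostdc1 at 0.08 in vehicle-treated mice, and Cldn16 at 0.24, Irx1 0.30, Aqp2 0.34 and Slc26a7 −0.11 in ATG-treated mice. The replicate block put Irx1 at 0.40 and Sostdc1 at 0.27, and leaving out the unnumbered mice put Irx1 at 0.14, in vehicle-treated mice. Sostdc1 was at −0.01 with median-ratio scaling in ATG-treated mice and Slc26a7 at 0.01 by limma-voom in vehicle-treated mice. Without 1 mouse the ranges for diabetes in vehicle-treated mice were −0.16 to 0.51 for Cldn16, −0.03 to 0.41 for Cldn19, −0.45 to 0.35 for Irx1, −0.41 to 0.37 for Sostdc1, −0.69 to 0.19 for Foxi1 and −0.17 to 0.16 for Slc26a7. In ATG-treated mice Sostdc1 ranged from −0.19 to 0.37. For ATG in diabetic mice 28 of the 38 members crossed 0 when 1 mouse was left out, among them Wfdc15b (−0.02 to 0.66), Foxi1 (−0.85 to 0.03), Egf (−0.19 to 0.36), Umod (−0.33 to 0.51), Hsd11b2 (−0.29 to 0.42) and Slc26a4 (−0.24 to 0.40), and with the proximal mean Egf was at −0.08, Umod −0.07, Hsd11b2 −0.12 and Slc26a4 −0.10.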
